A study of Mus musculus with 2 samples.

Results

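Dermomyotome-like paraxial mesoderm was taken here as the cells that carried transcripts of both Pax3 and Meox1 but none of Pax1 or Sox10. Cells were selected on their counts of unique molecular identifiers (UMIs, each standing for 1 captured transcript), with at least 2 UMIs of Pax3, at least 1 of Meox1, 0 of Pax1 and 0 of Sox10. Barcodes were kept if 1000 or more genes were detected and no more than 10% of their UMIs were mitochondrial, which left 16780 of 17699. The rule gave 247 cells, of which 137 came from the library labelled Ctrl (7007 kept cells) and 110 from the one labelled cKO (9773 kept cells).

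The libraries came from Swiss Webster mouse embryos at E9.5. Both groups carried Mesp1Cre, a driver of recombination in early mesoderm, and 1 copy of the Rosa26-GFPflox reporter, so that cells in which Cre had acted were green. The genotypes were Mesp1Cre;Rosa26-GFPflox/+ for Ctrl and Mesp1Cre;Rosa26-GFPflox/+;Tbx1flox/flox for cKO, in which Tbx1, a T-box transcription factor of the pharyngeal mesoderm, should be inactivated in the same cells. Live GFP-positive cells of the pharyngeal apparatus and heart were sorted and their transcripts counted at the 3′ end in droplets. Each library pooled a pair of embryos of unrecorded sex, and the cKO pair was slightly further on by somite count, which cannot be told apart from the genotype. With 1 library in each group no difference has a replicate check. No test was possible, and all 95% intervals cover counting error only.

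Somites, the blocks of paraxial mesoderm beside the neural tube, divide into a dorsal epithelium, the dermomyotome, and a ventral mesenchyme, the sclerotome. The dermomyotome expresses Pax3 and gives rise to skeletal muscle, dermis and the migratory precursors of limb and tongue muscle, which switch on Lbx1 and the receptor Met before they leave the somite. Sclerotome expresses Pax1 and forms the axial skeleton. The Mesp1 lineage reaches only part of the somites, so the cells caught here sample the somitic mesoderm that the dissection and the reporter included.

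Members held 3192271 UMIs in the library labelled Ctrl and 2189374 in the library labelled cKO, with medians of 21156 and 17839 per cell. Levels below are CPM, the UMIs summed over the members of a library and scaled to a common total of 1e6. A count of 0 allows up to 0.940 CPM labelled Ctrl and 1.37 CPM labelled cKO (3 counts). Scrublet scores marked 14 and 13 members as presumed doublets, and they were kept. Across the whole libraries 15 barcodes occurred in both, and none of them belonged to members of both. Tbx1 was low in the members, at 3.45 CPM labelled Ctrl and 12.8 CPM labelled cKO, and in the other kept cells it was 27.5 and 44.5 CPM. The targeted gene was thus not lower in the library labelled cKO. The deleted part is not given in the sources used here and counts from the 3′ end may lie outside it, so this level may check nothing.

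The genes used for the choice describe the cells and are not results. Pax3 (chr1:78101267-78197136, GRCm38) ranged from 2 to 29 UMIs per member with a median of 7 in the library labelled Ctrl, and from 2 to 14 with a median of 4 in the library labelled cKO. Meox1 (chr11:101877510-101894354), a homeobox factor of the somite, ranged from 1 to 25 and from 1 to 26 UMIs, with a median of 5 in both. At the threshold, 9 and 20 members had exactly 2 Pax3 UMIs, while 15 and 18 cells fell short with 1. Those 15 and 18 cells carried the somite factor Tcf15 at 193 and 124 CPM, and the members with exactly 2 Pax3 UMIs at 222 and 265 CPM. A further 13 cells in each library met the rule but for having no Meox1 UMI, and 10 and 9 cells failed only by having Pax1. The latter carried Tcf15 at 293 and 254 CPM.

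Tcf15, the marker of these cells that the rule did not use, was found in nearly all of them. Tcf15 (chr2:152143056-152149097), a basic helix-loop-helix factor needed for somites to become epithelial, had a UMI in 135 of 137 members labelled Ctrl and 105 of 110 labelled cKO. Its level was 371 CPM (350 to 392) and 325 CPM (302 to 350), against 14.5 and 12.1 CPM in the other kept cells. Lbx1 (chr19:45232684-45236841) was at 52.0 and 65.8 CPM in members and at 0.671 and 0.662 CPM in the other kept cells. Meox2, the second Meox gene of the somite, was at 86.1 and 63.9 CPM against 10.9 and 5.37 CPM.

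Among the 15 genes furthest above the other kept cells in both libraries were Tcf15, Lbx1, Zcchc12, Fap, Plch1, Meox2, Pcp4, Grrp1, Fst, Grem1, Crabp2, Gas1, Cadm1 and Lin28b. Fst, which encodes the activin and BMP antagonist follistatin, reached 145 and 159 CPM against 34.6 and 22.3 CPM. Gas1, a co-receptor for hedgehog ligands, reached 353 and 264 CPM against 143 and 100.3 CPM. Crabp2, a retinoic acid binding protein, was the most abundant of these at 511 and 417 CPM, against 172 and 155 CPM.

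**Figure D1:**
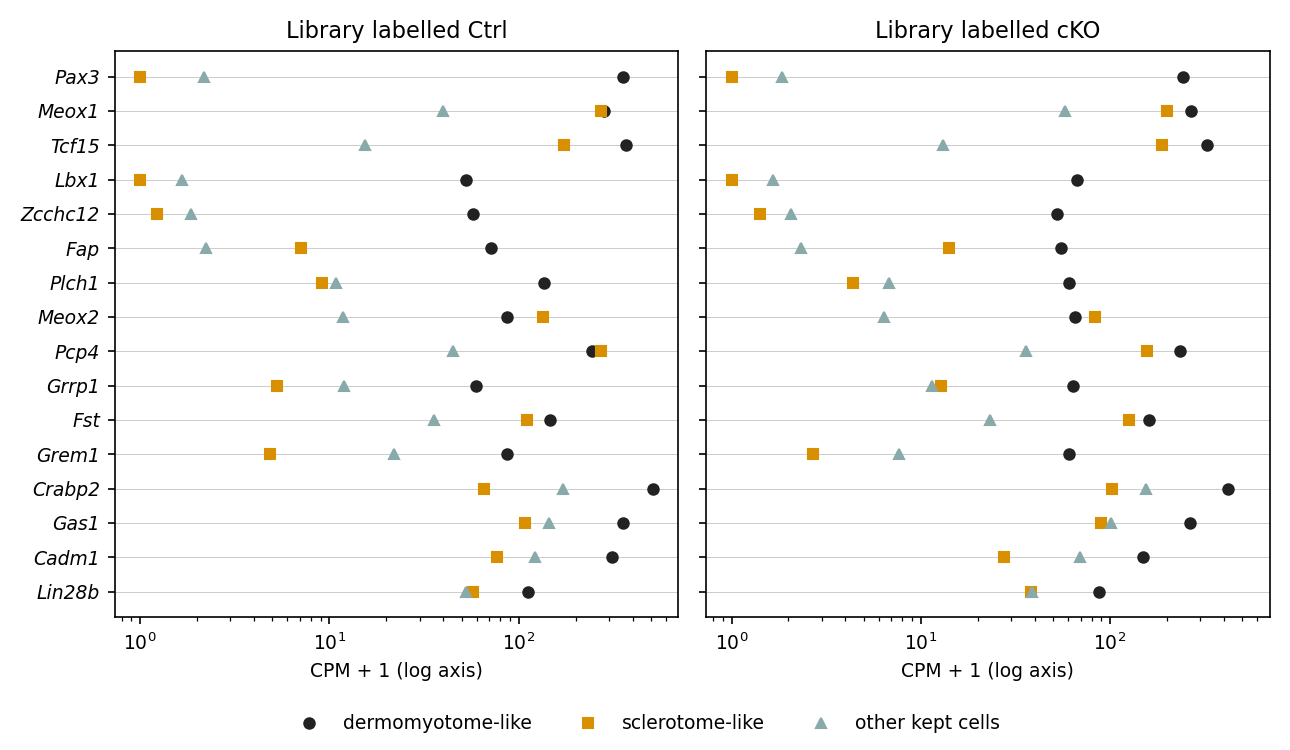
Level of the 2 selection genes (Pax3, Meox1) and 14 leading genes in dermomyotome-like, sclerotome-like and other kept cells of each library, as CPM + 1 on a log axis. Lbx1 and Zcchc12 sit far to the right in the dermomyotome-like cells of both libraries, whereas Meox1, Meox2, Pcp4 and Fst lie close together in dermomyotome-like and sclerotome-like cells.

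The nearest population was the sclerotome-like cells, taken as those with at least 2 UMIs of Pax1 and none of Pax3 or Sox10, 205 labelled Ctrl and 114 labelled cKO. Meox1, Meox2, Pcp4 and Fst were shared with them, Meox2 being higher in the sclerotome-like cells at 133 and 82.1 CPM. Tcf15 led the genes above the other kept cells, but was not among the 15 furthest above the sclerotome-like cells. Lbx1 had no UMI in sclerotome-like cells of either library, and Zcchc12 was at 0.225 and 0.421 CPM there against 56.7 and 51.6 CPM in members. Sox9, the regulator of cartilage, showed the opposite pattern, at 40.1 and 30.2 CPM in members and 405 and 213 CPM in sclerotome-like cells. Col3a1 (97.1 and 99.6 against 564 and 346 CPM), Foxd1 (90.8 and 109 against 349 and 326 CPM) and Lum (10.7 and 4.57 against 125 and 112 CPM) were likewise lower in members. Pax9 and Nkx3-2, sclerotome factors that the rule did not use, had 1 and 0 UMIs in the members of each library.

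Of 13 neural crest genes in the files, 2 were measured in members, that is reached 20 CPM and 30 UMIs in either library, Crabp1 and Snai2, and Foxd3, Tfap2b, Ngfr and Dlx5 were at 0. A UMI of this list was in 90 of 137 and 60 of 110 members, and its summed level was 85.5 and 67.6 CPM against 258 and 183 CPM in the other kept cells. Of 14 presomitic genes none was measured, and Tbx6, Msgn1, Mesp1, Mesp2 and Wnt3a were at 0. The neural tube factors Sox2, Sox1, Olig2 and Olig3 were at 0 in both libraries, but the whole list of 14 neural tube genes had a UMI in 119 of 137 and 88 of 110 members. Its summed level was 134 and 115 CPM, near the 142 and 127 CPM of the other kept cells. A UMI of the cardiomyocyte list was in 64 of 137 and 57 of 110 members, and 4 members labelled Ctrl and 5 labelled cKO held 91.1% and 93.7% of the UMIs of that list. Its summed level was 339 and 716 CPM in members, against 1446 and 2271 CPM in the other kept cells. Differentiated muscle was nearly absent, with Myog, the factor of terminal differentiation, in 2 and 1 members and Myod1 in 0 and 1.

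Most members had either Lbx1 or Dmrt2, in both libraries. Both genes were found in 12 and 8 members and neither in 12 and 23. Lbx1 had a UMI in 64 of 137 members labelled Ctrl (46.7%, 38.1 to 55.4) and in 58 of 110 labelled cKO (52.7%, 43.0 to 62.3). Dmrt2 (chr19:25672394-25679013), a dermomyotome factor acting upstream of Myf5, was found in 18.8% of Lbx1-positive and 83.6% of Lbx1-negative members labelled Ctrl. In the library labelled cKO the shares were 13.8% and 55.8%. Median UMIs were 21144 with and 21744 without Lbx1 in the library labelled Ctrl, and 18547 and 16606 in the other. After thinning each cell to 5000 UMIs, Lbx1 was left in 21.9% and 28.2% of members and Dmrt2 in 31.4% and 14.5%, while sclerotome-like cells had neither gene in either library. Dmrt2 and several genes below were looked at after their values were seen, so the division is a description.

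Zcchc12 led the genes that went with Lbx1. It was at 111 CPM in Lbx1-positive and 7.71 CPM in Lbx1-negative members labelled Ctrl, and at 87.8 and 9.84 CPM labelled cKO. Met, the receptor for hepatocyte growth factor that migrating muscle precursors need, followed the same order, at 64.4 and 12.5 CPM labelled Ctrl and 31.5 and 7.87 CPM labelled cKO. The transcription factor Tbx3 was at 59.7 and 11.3 CPM, then 42.6 and 15.7 CPM. Lypd1, Plk2, Asb4, Ppfibp2, Ets1, Stk26 and Shroom3 completed the 10 leading genes on this side, and Eya1, a transcriptional co-activator, was at 70.3 and 25.5 CPM, then 59.7 and 29.5 CPM.

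Kdr, the VEGF receptor best known from endothelium, was also found with Lbx1. It had a UMI in 35 members labelled Ctrl, of which 31 had Lbx1, and in 30 labelled cKO, of which 25 had Lbx1. Endothelial Pecam1 was at 2 and 5 UMIs and Cdh5 at 0 and 4 UMIs over all members. The whole endothelium list nevertheless had a UMI in 74 of 137 and 82 of 110 members, with up to 45 and 60 UMIs in 1 cell. Lmo2, of the blood and endothelial lineages, was at 22.9 CPM with Kdr and 1.27 CPM without it in the library labelled Ctrl, and at 39.1 and 1.25 CPM in the library labelled cKO, and Etv2 was in 4 of 35 and 6 of 30 Kdr-positive members. The part of endothelial cells in the Kdr signal was not tested. Hoxb1 was at 40.5 CPM with and 17.8 CPM without Lbx1 in the library labelled Ctrl, and at 46.9 and 18.7 CPM in the library labelled cKO. Hoxb4 was at 99.5 and 115 CPM, then 32.4 and 37.4 CPM.

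Lbx1-negative members carried more of several other somite genes. Dmrt2 was at 166 CPM in them and 13.9 CPM in Lbx1-positive members labelled Ctrl, and at 49.2 and 11.9 CPM labelled cKO. Wnt16 had a UMI in 44 members labelled Ctrl, 42 of them with Dmrt2, and in 8 labelled cKO, all 8 with Dmrt2. Pax7, a paralog of Pax3 that marks later muscle progenitors, was found in 34 members labelled Ctrl, 31 with Dmrt2, and in 3 labelled cKO, 2 with Dmrt2. En1, a homeobox gene of the central dermomyotome, was in 19 members labelled Ctrl and 1 labelled cKO, and every one of them had Dmrt2. Pax7 and En1 had no UMI in sclerotome-like cells, whereas Wnt16 was at 18.9 and 12.6 CPM there.

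The remaining genes of that side were Lpar1, Pdlim4, Foxp2, Lrig1, Rragd, Agmo, Spry1, Bach2 and 2610016A17Rik. Zic1, a zinc finger factor of the dorsal somite, was in 12 members labelled Ctrl, none of which had Lbx1, and in 0 labelled cKO. By the exact binomial interval this allows up to 3.30% of cells with a detected UMI, and undetected transcripts are not bounded. Sim1, a factor of the lateral dermomyotome, did not follow the division by Lbx1 closely, being in 28 of 64 Lbx1-positive and 40 of 73 Lbx1-negative members labelled Ctrl, and in 11 of 58 and 16 of 52 labelled cKO. By Dmrt2 it was in 43 of 73 positive and 25 of 64 negative members labelled Ctrl (55.4 and 40.8 CPM), and in 18 of 37 and 9 of 73 labelled cKO (48.3 and 7.73 CPM). Myf5, the first myogenic factor to appear in the somite, was in 21.9% of Lbx1-positive and 38.4% of Lbx1-negative members labelled Ctrl and in 10.3% and 11.5% labelled cKO. By Dmrt2 the order differed between the libraries. Myf5 was in 41.1% of Dmrt2-positive and 18.8% of Dmrt2-negative members labelled Ctrl, and in 5.41% and 13.7% labelled cKO. Twist2, of the dermal lineage, was in 37 and 23 members and Tbx18, of the rostral part of each somite, in 12 and 9. The genes furthest below in Dmrt2-positive members were those of the sarcomere, such as Myl2 at 1.13 and 0 CPM against 122 and 119 CPM, and Myl2 came from 3 cells of each library.

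**Figure D2:**
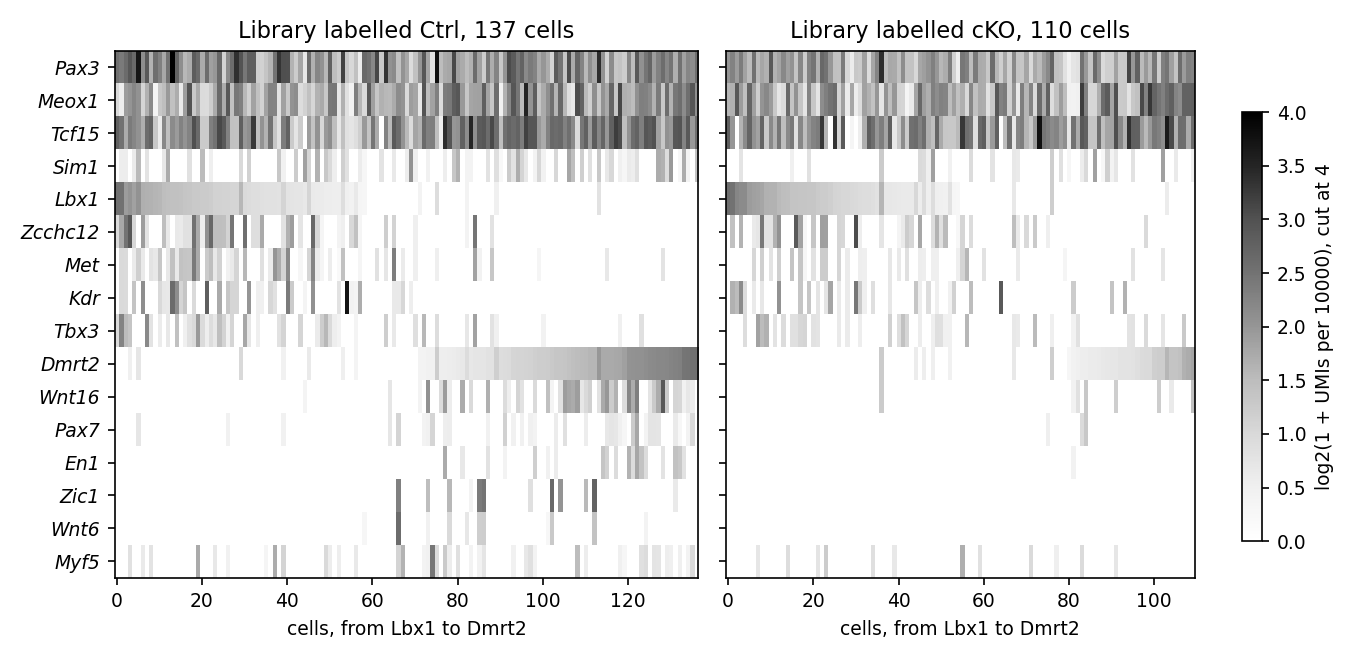
Heat map of all members, 1 column a cell and 1 row a gene, ordered within each library from the highest share of Lbx1 to the highest share of Dmrt2; grey shows log2(1 + UMIs per 10000 UMIs of the cell), cut at 4. Zcchc12, Met, Kdr and Tbx3 lie mostly at the Lbx1 end and Wnt16, Pax7, En1 and Zic1 at the Dmrt2 end, which is sparser in the library labelled cKO.

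Dermomyotome-like cells made up 1.96% (1.64 to 2.31) of kept cells labelled Ctrl and 1.13% (0.926 to 1.36) of those labelled cKO, a difference of −0.83 percentage points (−1.23 to −0.45). The dissection and the sort can set such shares. The direction differed between cells of either sex. Cells were called by having UMIs of Xist and none of 4 Y-linked genes, or the reverse. Among cells with Xist only, members were 74 of 3506 (2.11%, 1.66 to 2.64) labelled Ctrl and 13 of 5390 (0.241%, 0.128 to 0.412) labelled cKO. Among cells with Y-linked UMIs only, they were 43 of 2723 (1.58%, 1.15 to 2.12) and 69 of 2876 (2.40%, 1.87 to 3.03).

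In the library labelled cKO the share was thus lower with Xist than with Y-linked UMIs, while in the library labelled Ctrl the intervals overlapped. With a pair of embryos in each pool, sex and embryo cannot be told apart, so each of these contrasts may be one between embryos. Sclerotome-like cells were unevenly shared in both libraries, at 4.93% and 0.0742% of the cells with Xist only and 0.331% and 2.54% of the cells with Y-linked UMIs only. After thinning each cell to 10000 UMIs the differences for dermomyotome-like cells were −1.60 points (−2.13 to −1.16) with Xist and 0.56 points (−0.12 to 1.25) with Y-linked UMIs. Since 11.8% of members labelled cKO had Xist only, against 54.0% labelled Ctrl, values within each sex are given below for part of the genes. Those with Xist rest on 13 cells labelled cKO, of which 11 had Lbx1, against 34 of 74 labelled Ctrl. Ratios with Xist thus compare unlike mixes of Lbx1-positive and Lbx1-negative members.

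**Figure D3:**
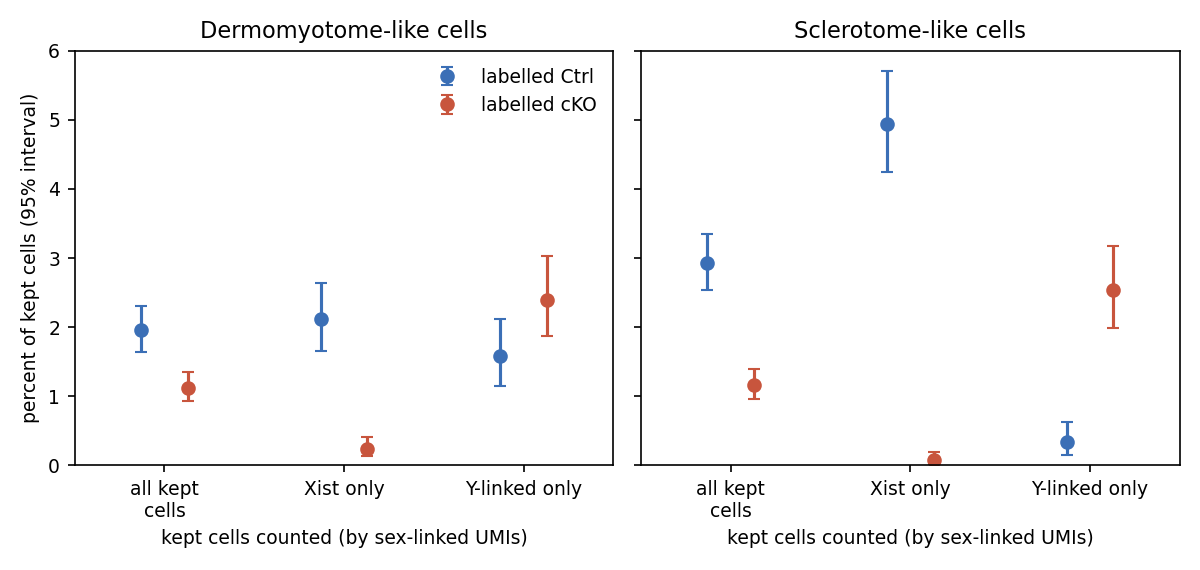
Share of kept cells that were dermomyotome-like or sclerotome-like, in percent, for all kept cells and for cells with Xist UMIs only or Y-linked UMIs only; bars are 95% Clopper-Pearson intervals. The library labelled cKO lies below the library labelled Ctrl among cells with Xist and above it among cells with Y-linked UMIs.

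Between the libraries 5776 genes were measured in members, and a gene was counted as past the fold at a 2-fold ratio of CPM. Of these, 55 (0.952%) were at least 2-fold higher in the library labelled cKO and 123 (2.13%) at least 2-fold lower. In the other kept cells the same genes gave 23 (0.398%) and 34 (0.589%), with far more UMIs behind each. The median log2 ratio over all measured genes was −0.07 in members and −0.10 in the other kept cells, and no shift was removed. Ratios are cKO over Ctrl on the log2 scale.

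Dmrt2, Wnt16, Zic1, Pax7 and En1 were lower in the members labelled cKO. Of the 10 leading genes of the Lbx1-negative side, 4 were past 2-fold lower (Dmrt2, Lrig1, 2610016A17Rik and Bach2). Of all measured genes 2.13% were, but the sets are unlike. The 10 were picked from the same members and include Agmo and Spry1, which did not reach the level for a measured gene. In cells with Xist and with Y-linked UMIs, Lrig1 was at −1.91 and −1.30, 2610016A17Rik at −2.03 and −0.88, and Bach2 at −0.71 and −0.85. Above 0 were 2 genes, Pdlim4 at 43.2 and 48.9 CPM and Agmo at 16.9 and 18.7 CPM. Spry1 was at 15.3 and 15.1 CPM, and the median of the 10 was −0.83. Dmrt2 was at 94.3 CPM (83.9 to 106) labelled Ctrl and 29.2 CPM (22.5 to 37.3) labelled cKO, a log2 ratio of −1.69 (−2.10 to −1.30), and was −3.75 in cells with Xist and −0.92 in cells with Y-linked UMIs. In the other kept cells it was near 0, at 0.273 and 0.244 CPM. Wnt16 was at 47.6 and 7.76 CPM (log2 ratio −2.62, −3.43 to −1.89), with 105 and 0 UMIs in cells with Xist and a log2 ratio of −1.50 (−2.57 to −0.50) in cells with Y-linked UMIs. Zic1 had 81 UMIs labelled Ctrl and 0 labelled cKO, at least 18.5-fold lower against a floor of 3 counts over the library. Of these, 61 were in cells with Xist only, of which the library labelled cKO had 13, and cells with Y-linked UMIs only had 0 in both libraries, so Zic1 gives no ratio within that sex. Pax7 (15.3 and 2.74 CPM) and En1 (15.7 and 0.457 CPM) did not reach the level for a measured gene, and had log2 ratios of −2.49 (−4.00 to −1.26) and −5.10 (−10.43 to −2.56). In cells with Xist they had 31 and 40 UMIs labelled Ctrl and 0 labelled cKO, and in cells with Y-linked UMIs Pax7 had 16 and 4 and En1 4 and 1.

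Within Lbx1-negative members alone, Dmrt2 was at 166 CPM labelled Ctrl and 49.2 CPM labelled cKO, and Pax7 at 27.3 and 5.90 CPM. Of the 10 leading genes of the Lbx1 side 0 were past 2-fold in either direction, with a median of −0.15. Lbx1 itself had a log2 ratio of 0.34 (0.01 to 0.67), 1.44 in cells with Xist and 0.07 in cells with Y-linked UMIs. Zcchc12 was at −0.14 (−0.49 to 0.21), and Eya1 at −0.03 (−0.41 to 0.34). Met was lower, at 37.0 and 20.6 CPM (−0.85, −1.38 to −0.34), as it was in the other kept cells (−0.94).

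Among 22 dermomyotome and somite factors apart from Pax3 and Meox1, 14 were measured, of which 0 were past 2-fold higher and 4 past 2-fold lower (Dmrt2, Sim1, Aldh1a2 and Uncx; 0.952% and 2.13% of all measured genes were), with a median of −0.44 against −0.07 over all genes. The median of the same genes in the other kept cells was −0.45. Sim1 was at 48.9 and 21.9 CPM (−1.16, −1.65 to −0.68), and at −0.59 (−1.96 to 0.52) in cells with Xist and −1.54 in cells with Y-linked UMIs. Uncx, which marks the caudal part of each somite, was at 37.3 and 17.8 CPM (−1.07, −1.63 to −0.53). Aldh1a2, the enzyme that makes retinoic acid, was at 28.8 and 12.8 CPM (−1.17, −1.84 to −0.55), but was at 0.14 and −0.07 within the sexes. Tcf15 (−0.19, −0.32 to −0.05) and Foxc2 (0.34, −0.19 to 0.86) were not past 2-fold.

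Of 25 genes of myotome and limb muscle precursors 9 were measured. Myf5 was past 2-fold lower at 25.7 and 7.31 CPM (−1.81, −2.69 to −1.03), and it was lower still in the other kept cells (−4.40). Within the sexes Myf5 was at −1.57 (−4.66 to 0.38) with Xist and −2.39 with Y-linked UMIs. Des, Actc1 and Tnnc1, all genes of the contractile apparatus, were past 2-fold higher, where 0.952% of all measured genes were. Members with 10 or more UMIs of haemoglobin, cardiomyocyte or endothelial genes held 94.9% and 93.7% of the Actc1 UMIs and 92.6% and 91.6% of the Tnnc1 UMIs labelled Ctrl and cKO. Without presumed doublets Actc1 was at −0.15 and Tnnc1 at −0.20, while Des was at 1.47. Without the cells rich in those UMIs, few Actc1 and Tnnc1 UMIs remained and the values were 1.57 and 1.52, with Des at 1.49. In the dermis and connective tissue list, 11 of 21 genes were measured and had a median of −0.80, which was −0.31 after thinning each cell to 10000 UMIs. Tcf4 (482 and 240 CPM), Col1a2 (176 and 79.9 CPM) and Postn (21.6 and 9.59 CPM, in 4 and 8 cells) were past 2-fold lower. Of all measured genes 2.13% were. In the other kept cells the median of this list was −0.36, with 2 genes past 2-fold lower. Prrx2, a homeobox factor of mesenchyme, was past 2-fold higher at 58.9 and 118 CPM (log2 interval 0.72 to 1.28), with −0.02 in the other kept cells.

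Hox genes, which record position along the body axis, were those of the anterior paralog groups. Groups 1 to 5 carried nearly all Hox UMIs of members, and groups 6 to 13 stayed at or below 2.82 CPM each. The summed level of group 1 was 48.2 CPM labelled Ctrl and 48.4 labelled cKO (log2 ratio 0.01, −0.37 to 0.37). Group 2 was at 183 and 163 CPM (−0.17, −0.37 to 0.02), and group 3 at 169 and 87.7 CPM (−0.94, −1.19 to −0.70).

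Over all members, group 4 had the lowest ratio of groups 1 to 5. It was at 193 CPM (178 to 208) labelled Ctrl and 63.0 CPM (53.0 to 74.5) labelled cKO, a log2 ratio of −1.61 (−1.89 to −1.34). A UMI of group 4 was present in 121 of 137 members labelled Ctrl (88.3%) and 51 of 110 labelled cKO (46.4%). Within the sexes it was at 194 and 148 CPM in cells with Xist (log2 ratio −0.38, −0.94 to 0.13), where group 3 was lower (−0.72, −1.41 to −0.11), and at 150 and 51.3 CPM in cells with Y-linked UMIs (log2 ratio −1.55). Group 5 was at 29.8 and 14.2 CPM over all members (−1.07, −1.71 to −0.47), but in cells with Xist it was higher in the library labelled cKO, at 31.5 and 65.5 CPM (1.05, 0.11 to 1.91), and with Y-linked UMIs lower (−1.39). Sclerotome-like cells were at 233 and 31.6 CPM for group 4, and the other kept cells at 142 and 98.0 CPM. Hoxd4 (55.1 and 15.1 CPM) and Hoxb4, found in 107 and 43 members, were both past 2-fold lower. In cells with Xist their intervals included 0 (−0.55, −1.72 to 0.44, and −0.51, −1.32 to 0.22), and in cells with Y-linked UMIs they were at −2.06 and −1.59. Hoxb1 was at 0.25 (−0.22 to 0.70). Of 39 Hox genes 8 were measured, with 3 past 2-fold lower in members (2.13% of all measured genes were) and 2 in the other kept cells.

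**Figure D4:**
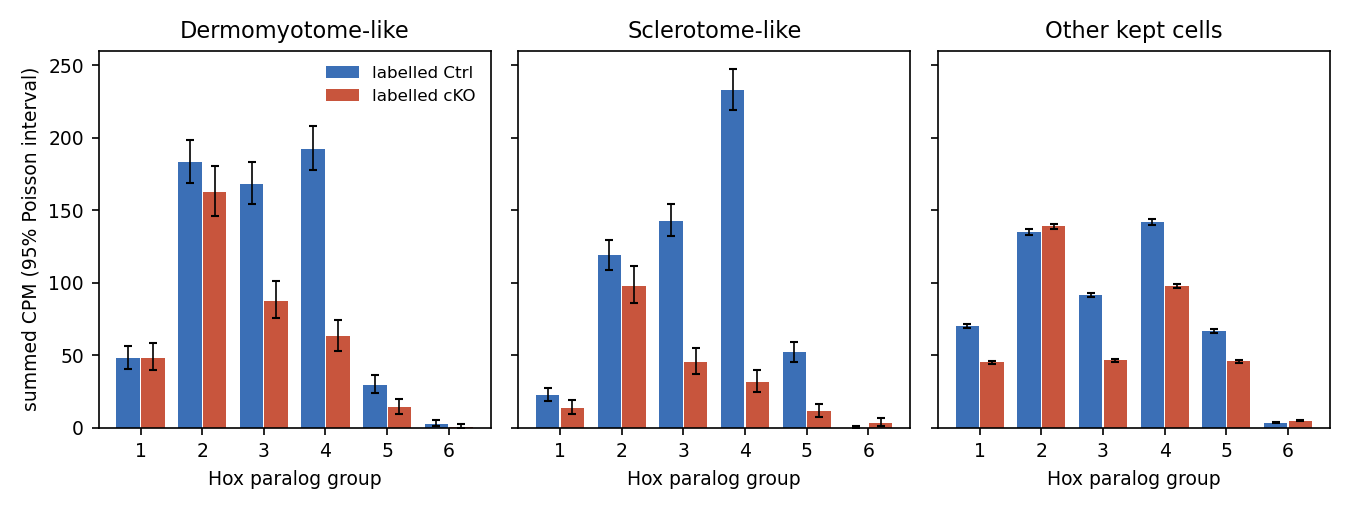
Summed CPM of Hox paralog groups 1 to 6 in dermomyotome-like, sclerotome-like and other kept cells of each library, with 95% Poisson intervals. In dermomyotome-like cells of both sexes pooled, groups 1 and 2 are at like levels in both libraries, whereas groups 3, 4 and 5 are lower in the library labelled cKO.

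The 12 genes furthest down in the library labelled cKO with the same sign in both sexes were Tpm3-rs7, Cp, Wnt16, Nkd2, Sparcl1, Gm26669, Col23a1, Hoxd4, Dmrt2, Zfhx3, Dmd and Hoxb4. Cp, which encodes the copper protein ceruloplasmin, was at 29.4 and 2.74 CPM (−3.43, −4.91 to −2.25), and at 0.77 in the other kept cells. Nkd2, an inhibitor of Wnt signalling, was at 39.5 and 6.85 CPM (−2.53, −3.41 to −1.75), and at −0.20 in the other kept cells. Sparcl1, a matrix glycoprotein, was at 58.3 and 13.7 CPM (−2.09, −2.70 to −1.53), and at −0.16 elsewhere. Zfhx3 (206 and 68.1 CPM) and Dmd, the dystrophin gene (131 and 24 UMIs), were lower in the other kept cells too, at −0.93 and −0.60. Among cells with Xist only, the genes Cp, Nkd2 and Sparcl1 had 1, 1 and 0 UMIs labelled cKO against 63, 85 and 95 labelled Ctrl, and in cells with Y-linked UMIs their log2 ratios were −2.85, −1.39 and −1.22.

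Tpm3-rs7, with a ratio of −4.28, was at −4.59 in the other kept cells. A gene close in sequence to another can lose or gain reads with it, so this value is uncertain. The same holds for Ubb, Gm10076, Gm10260, Hist1h2ap and Hist2h2ac on the other side.

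The 12 genes furthest up were Ubb, Gm10076, Etv2, Hist1h2ap, Lamtor3, Armc10, Il11ra1, Crip1, Crip2, Myl9, Hist2h2ac and Gm10260. Of these 11 were also above 0 in the other kept cells. Ubb, a polyubiquitin gene, was at 85.2 and 529 CPM (2.64, 2.44 to 2.83), with 3.14 in the other kept cells. Lamtor3, a scaffold at the lysosome, was at 9.08 and 39.7 CPM (2.13, 1.51 to 2.79), with 2.32 elsewhere. Ubb was at 3.77 and 1.92 and Lamtor3 at 1.38 and 2.96 in cells with Xist and with Y-linked UMIs, but Il11ra1 and Myl9 were at 0.55 and 0.08 in cells with Y-linked UMIs. Etv2, the factor that starts endothelial and blood fate, was at 5.33 and 30.1 CPM, but 48 of its 66 UMIs labelled cKO came from 1 cell, and with at least 1 UMI of Tcf15 asked for as well its ratio was −0.33.

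**Figure D5:**
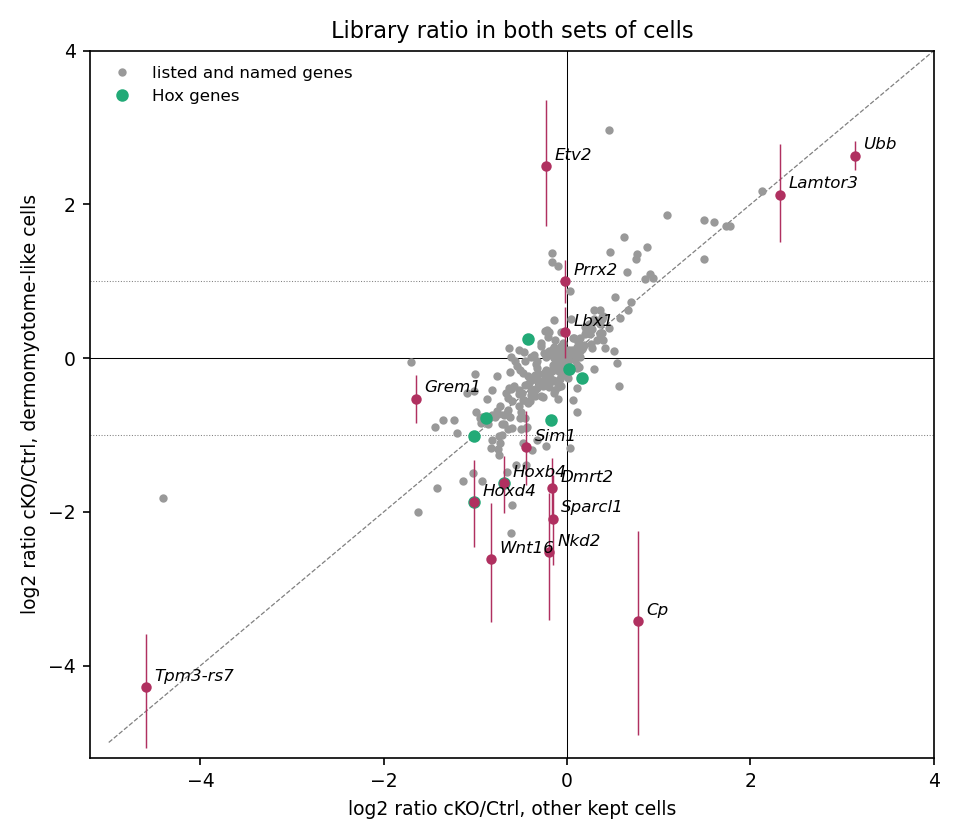
Log2 ratio of CPM, cKO over Ctrl, in dermomyotome-like cells (y axis) against the other kept cells (x axis) for measured genes that are listed or named here; haemoglobin genes and genes with 0 UMIs in a library are not drawn. Vertical bars are 95% counting intervals of labelled genes, the dashed line marks equal ratios and the dotted lines 2-fold; Dmrt2, Sparcl1, Nkd2 and Cp lie near or right of 0 on the x axis and well below 0 on the y axis, while Ubb, Lamtor3 and Tpm3-rs7 lie near the dashed line.

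Over the 6 signalling lists together, 43 genes were measured, of which 0 were past 2-fold higher and 6 (13.95%) past 2-fold lower, where 2.13% of all measured genes were lower. In the other kept cells 6 of the 43 were past 2-fold lower too, and the median was −0.39 in members and −0.55 there. All 7 measured of 13 hedgehog genes were below 0, with a median of −0.77, and −0.71 in the other kept cells. It was −1.39 in cells with Xist and −1.02 in cells with Y-linked UMIs. Cdon, a hedgehog co-receptor, was at 33.5 and 11.9 CPM (−1.50, −2.17 to −0.87), and Sufu, a negative regulator, at 21.6 and 8.22 CPM (−1.39, −2.23 to −0.63), both past 2-fold lower. Ptch1, the receptor and a direct target of the pathway, was at 50.4 and 29.7 CPM (−0.76, −1.20 to −0.34). In the FGF list 5 of 21 genes were measured, with 0 past 2-fold and a median of −0.78, which was −1.63 in cells with Xist and −0.34 in cells with Y-linked UMIs, and the BMP list had 9 of 20 measured, a median of 0.10 and 0 past 2-fold.

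The Wnt list had 12 of 29 genes measured, with Fzd7, a receptor, past 2-fold lower at 48.6 and 16.0 CPM and a median of −0.21, which was −0.62 in cells with Xist and −0.16 in cells with Y-linked UMIs. Of 15 Notch genes 3 were measured, and Notch2 was past 2-fold lower at 47.9 and 20.1 CPM. Retinoic acid genes were measured for 7 of 17, with Aldh1a2 and Stra6 past 2-fold lower and a median of −0.39. Of 18 measured guidance and adhesion genes, Epha7, Efnb1 and Slit2 were past 2-fold lower (2.13% of all measured genes were), with a median of −0.49 in members and −0.56 in the other kept cells. The matrix list, with 14 of 31 measured, had 1 gene past 2-fold lower, Col1a2. The sclerotome list had 5 of 17 measured, with Zic1 past 2-fold lower.

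The median of 39 S phase genes was −0.06 and that of 50 G2/M genes −0.09, with 0 past 2-fold in either, and in cells with Y-linked UMIs they were 0.06 and −0.33. Imprinted growth genes had a median of −0.04 over 14, with Plagl1 past 2-fold lower at 50.1 and 21.9 CPM. Glycolysis and hypoxia genes had a median of 0.21 over 16, with Vegfa past 2-fold lower at 27.9 and 8.68 CPM, and 4 measured dissociation stress genes a median of 0.20.

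The cardiomyocyte list had 6 of 7 measured genes past 2-fold higher in members labelled cKO (median 1.20), where 0.952% of all measured genes were. Its UMIs lay in few cells, however, and the median was −0.24 without presumed doublets. Of the cardiopharyngeal list 4 of 16 genes were measured and 0 were past 2-fold. Neural tube genes were measured for 3 of 14, with Irx3 past 2-fold higher at 9.71 and 25.1 CPM, and Etv2 was the 1 of 3 measured endothelial genes past 2-fold. The epithelial list had 1 measured gene and none past 2-fold, and neural crest genes had 2 and none. Haemoglobin UMIs were in 0 of 137 members labelled Ctrl, which allows up to 2.66% of cells with a detected UMI. They were in 103 of 110 labelled cKO (93.6%), with a median of 3 UMIs and 2613 of 3023 in 1 cell, and all 4 measured erythroid genes were higher. In kept cells of all kinds the shares were 1.21% and 89.4%. Leaving out members with 10 or more UMIs of haemoglobin, cardiomyocyte or endothelial genes (10 labelled Ctrl and 16 labelled cKO), an alternative chosen after the data had been seen, gave 51 genes past 2-fold higher and 151 lower, with Dmrt2 at −1.61. The part of these other cell types in the differences between the libraries was not otherwise tested.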

How the data were processed

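Droplet libraries of GFP-positive cells were analysed, 1 labelled Ctrl and 1 labelled cKO. The deposited values are raw counts of UMIs per gene and barcode, which the authors made with Cell Ranger 3.1.0 on the mm10 genome, for 27998 genes and the barcodes called as cells. Coordinates came from a RefSeq table of GRCm38.p6. Samples were grouped by the genotypes in the labels.

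The members and the gene lists were chosen with earlier results of these data known. Cells were filtered and selected as described, and their counts summed per library and divided by the total (CPM). No model was fitted to cells, as they are not replicates, although the study used one. CPM carry exact Poisson intervals, ratios the exact conditional interval and shares Clopper-Pearson intervals (95%, scipy 1.17.1). Only the interval of ratios was run on simulated data. Those were independent Poisson counts, so the run does not cover UMIs clustered in few cells. Intervals cover counting error only. Presumed doublets, the highest Scrublet scores (scanpy 1.11.5) at 0.8% per 1000 cells of a library, were kept except in an alternative. A gene was measured with at least 20 CPM and 30 UMIs in 1 library.

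Named genes were all those of the lists, the 12 furthest up and the 12 furthest down by the log2 ratio after adding 5 CPM, past 2-fold and of the same sign in both sexes, and the 15 furthest above the other kept cells with at least 50 CPM in both libraries. Genes used for the rule, sex-linked, mitochondrial, ribosomal protein and haemoglobin genes stayed out of these rankings. 1 gene of the last group and 1 of the neural crest list are not reported here. Genes named for the division by Lbx1 and Dmrt2 were the 10 leading ones on each side, or were chosen after their values were seen. Alternatives were other thresholds of Pax3, Tcf15 as a further marker, thinning each cell to 10000 UMIs, doublet removal, other totals, median-of-ratios size factors, means over cells, other filters on genes and cells of 1 sex.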

Additional observations from a re-analysis of the deposited data

Results flagged for a closer look

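The share of kept cells that were dermomyotome-like differed between the libraries in opposite directions in the 2 sexes. The difference, cKO minus Ctrl, was −1.87 percentage points among cells with Xist UMIs only and 0.82 points among cells with Y-linked UMIs only. The difference between these values was not tested, since each library pooled a pair of embryos and was 1 sample, and sex and embryo cannot be told apart. Asking for at least 2 UMIs of the sex-linked genes gave −1.89 and 1.27 points, and thinning each cell to 10000 UMIs gave −1.60 and 0.56 points, the latter with an interval that included 0 (−0.12 to 1.25).

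Haemoglobin UMIs, outside the main measurement, were present in 93.6% of members labelled cKO and in 0 of 137 labelled Ctrl. Of all kept cells 89.4% labelled cKO and 1.21% labelled Ctrl had them. Their part in the other differences was not tested beyond leaving out together the members with 10 or more UMIs of haemoglobin, cardiomyocyte or endothelial genes, 6 of which, all labelled cKO, had 10 or more haemoglobin UMIs.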

How the results depend on the processing

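The difference in the share of members, −0.83 points, kept its direction under 6 alternatives, and was −1.87 points in cells with Xist only and 0.82 points in cells with Y-linked UMIs only. The 55 genes past 2-fold higher became 85 in cells with Xist, 24 with at least 50 CPM asked for and 192 with no CPM filter and at least 10 UMIs. The 123 genes past 2-fold lower became 710, 32 and 716 under the same settings. In cells with Xist the library labelled cKO had 13 members with 229152 UMIs, against 1585624 UMIs labelled Ctrl. The cause of the larger counts there was not tested. The other 10 alternatives stayed within 1.5 times either count, but the number of measured genes changed too. It was 5776 as reported and 5481, 3129 and 10169 in the settings above. After thinning to 10000 UMIs 178 of 4455 genes were lower, and in cells with Y-linked UMIs 162 of 4879. All 12 genes named as lower kept their sign under the 9 alternatives that did not split the sexes, and so did those named as higher except Etv2, at −0.33 with Tcf15 asked for. Within the sexes the signs were fixed by the choice of these genes. With Xist and with Y-linked UMIs, 9 and 10 of the 12 higher genes and 10 and 11 of the 12 lower genes were past 2-fold, Myl9 (1.45) being at 0.08 with Y-linked UMIs and 0.52 without presumed doublets. The median of the cardiomyocyte list turned to −0.24 without presumed doublets and −0.71 in cells with Y-linked UMIs, and the cause was not tested. No paired analysis was possible because each group had 1 library. Depth limits genes below about 1 CPM, where a count of 0 cannot be told from a low level.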
